A study of Saccharomyces cerevisiae with 67 samples.

Results

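The Hsp70 chaperone family was examined as 10 genes of *Saccharomyces cerevisiae*, chosen by name out of 6002 nuclear protein-coding genes: the cytosolic SSA1, SSA2, SSA3 and SSA4, the ribosome-bound SSB1 and SSB2, the mitochondrial SSC1, KAR2 of the endoplasmic reticulum, and the Hsp110 genes SSE1 and SSE2. The study followed BY4741 cells through a heat shock, in a wild-type strain (WT) and in a strain without the RNA-binding protein Mip6 (*mip6*Δ). Exponential cultures in YPD gave the unstressed cells at 30 °C (time 0) and, in parallel flasks brought to 39 °C, the cells heated for 20 or 120 min. Histone H4 acetylated at lysine 12 (H4K12ac) was profiled by ChIP-seq, and the sample labels used here list 19 such libraries, with 3, 1 and 4 libraries of WT and 4, 3 and 4 of *mip6*Δ at 0, 20 and 120 min. WT is thus represented by 8 libraries and *mip6*Δ by 11, with a single WT library at 20 min.

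The file analysed here is a consensus list of H4K12ac regions, made by the authors by merging the peaks of their samples. It gives positions and no level, score or sample, so strains and time points could not be compared, no replicate error exists for any value, and neither the mip6 deletion nor the heat shock could be checked. The list holds 1970 regions of 504 to 25822 bp (median 2835 bp) on the 16 nuclear chromosomes, which cover 61.8% of the nuclear genome. A base counts as covered here when it lies in a region, whichever library the peak came from. The gene start is the first base of the coding sequence, and the promoter is the 500 bp before it. Read depth per library was not analysed here.

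Hsp70 proteins bind exposed hydrophobic stretches of unfolded chains and release them in a cycle driven by ATP, in which J-domain proteins stimulate hydrolysis and nucleotide exchange factors reset the chaperone. In budding yeast SSA1 and SSA2 are made in growing cells, SSA3 and SSA4 are induced by heat, and transcription of many of these genes depends on Hsf1, which binds heat-shock elements, or on Msn2 and Msn4, which bind stress response elements. H4K12ac is a mark found around the starts of active genes.

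The upstream sequence of 6 members is shown first, because the family divided at this place into genes with and without a region. Each sequence runs 5′ to 3′ on the coding strand from 380 to 81 bp before the gene start, in the RefSeq copy of the sacCer3 (R64) genome. Capitals mark a heat-shock element of at least 3 units (NGAAN and NTTCN in alternation), the stress response element AGGGG or its complement CCCCT, and TATAAA or its complement. The windows are chrI:141512-141811 (minus strand), chrXII:97566-97865 (minus), chrII:86529-86828 (minus), chrV:364209-364508 (plus), chrIV:43685-43984 (plus) and chrX:380947-381246 (plus). Those of SSA1 and SSA3 held 0 bases in regions, and those of the other 4 lay wholly inside a region.
SSA1: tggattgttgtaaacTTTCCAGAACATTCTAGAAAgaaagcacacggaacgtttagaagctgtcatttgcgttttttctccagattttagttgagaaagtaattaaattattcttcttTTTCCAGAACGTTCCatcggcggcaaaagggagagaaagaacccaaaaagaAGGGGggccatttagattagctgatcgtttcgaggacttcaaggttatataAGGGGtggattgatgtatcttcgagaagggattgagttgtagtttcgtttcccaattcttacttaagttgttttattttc
SSA2: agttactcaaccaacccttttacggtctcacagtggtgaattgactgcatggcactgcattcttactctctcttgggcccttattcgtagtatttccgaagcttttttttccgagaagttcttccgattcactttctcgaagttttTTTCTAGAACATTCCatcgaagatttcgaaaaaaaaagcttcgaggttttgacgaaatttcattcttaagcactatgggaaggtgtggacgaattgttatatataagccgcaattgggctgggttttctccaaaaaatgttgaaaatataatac
SSA3: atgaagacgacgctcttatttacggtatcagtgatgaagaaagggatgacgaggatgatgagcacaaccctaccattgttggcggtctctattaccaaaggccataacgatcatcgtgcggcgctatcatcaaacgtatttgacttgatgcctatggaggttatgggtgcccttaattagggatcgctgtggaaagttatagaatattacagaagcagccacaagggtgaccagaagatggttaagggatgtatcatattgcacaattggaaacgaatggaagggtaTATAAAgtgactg
SSA4: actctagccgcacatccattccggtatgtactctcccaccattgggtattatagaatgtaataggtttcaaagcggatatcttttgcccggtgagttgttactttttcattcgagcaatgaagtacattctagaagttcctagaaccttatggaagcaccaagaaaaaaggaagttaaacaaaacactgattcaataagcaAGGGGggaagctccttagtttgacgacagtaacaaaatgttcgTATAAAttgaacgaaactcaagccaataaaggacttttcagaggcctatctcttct
SSB1: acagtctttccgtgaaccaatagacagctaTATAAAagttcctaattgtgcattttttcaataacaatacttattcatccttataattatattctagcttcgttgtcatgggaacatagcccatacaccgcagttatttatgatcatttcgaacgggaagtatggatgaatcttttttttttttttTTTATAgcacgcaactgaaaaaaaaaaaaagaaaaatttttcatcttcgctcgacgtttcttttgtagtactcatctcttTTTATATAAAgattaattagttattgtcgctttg
KAR2: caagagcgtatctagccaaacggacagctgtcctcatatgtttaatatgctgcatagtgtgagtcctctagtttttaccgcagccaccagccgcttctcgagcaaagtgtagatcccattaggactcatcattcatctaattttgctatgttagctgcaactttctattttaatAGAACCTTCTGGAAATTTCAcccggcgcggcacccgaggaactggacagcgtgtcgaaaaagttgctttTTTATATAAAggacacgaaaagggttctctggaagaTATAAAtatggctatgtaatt

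H4K12ac regions covered the start of 8 of the 10 genes (80%), beside 89.9% of all nuclear protein-coding genes and 91.9% of the 346 genes as long as the members (1842 to 2082 bp). The same 8 genes had a wholly covered promoter, beside 79.7% of all genes and 82.4% of the genes of that length. SSA1 and SSA3 were the members without a region at the start. The count of 8 in 10 is near the background on both measures. Within the SSA genes 2 of 4 starts were covered, against 2 of 2 for SSB, 2 of 2 for the organelle genes and 2 of 2 for the Hsp110 genes. Groups of 2 and 4 genes from 1 pooled list allow no test of this difference. SSA1 and SSA2, grouped here as made in growing cells, had 1 start outside (SSA1) and 1 inside (SSA2). SSA3 and SSA4, grouped here as heat-induced, also had 1 outside (SSA3) and 1 inside (SSA4). The grouping does not exclude a response of SSA1 or SSA2 to heat, and the response of the genes to heat was not analysed here.

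In each of the 8 members with a covered start the region ended inside the gene, 396 to 925 bp after the start (median 564 bp). Such an edge was thus present in 8 of 10 members (80%), beside 34.9% of all genes and 67.3% of the genes of the same length, and in 8 of the 8 with a covered start, beside 233 of 318 genes of that length (73.3%). All 10 genes were covered over less than 50% of their length, as were 29.3% of all genes and 48.6% of the genes of the same length. Counted over bases with a unique 50-base word only, 9 of the 10 were under 50%, and SSB2 had 72.9%. The median covered share was 31.8% for the members (0 to 48.5%), 50.8% for genes of that length (quartiles 38.6 and 90.2%) and 100% over all genes. Cover differs with gene length, so the genes of 1842 to 2082 bp are the closer comparison. No member was wholly covered, against 85 of the 346 genes of that length (24.6%) and 3303 of all 6002 genes.

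**Figure D1:**
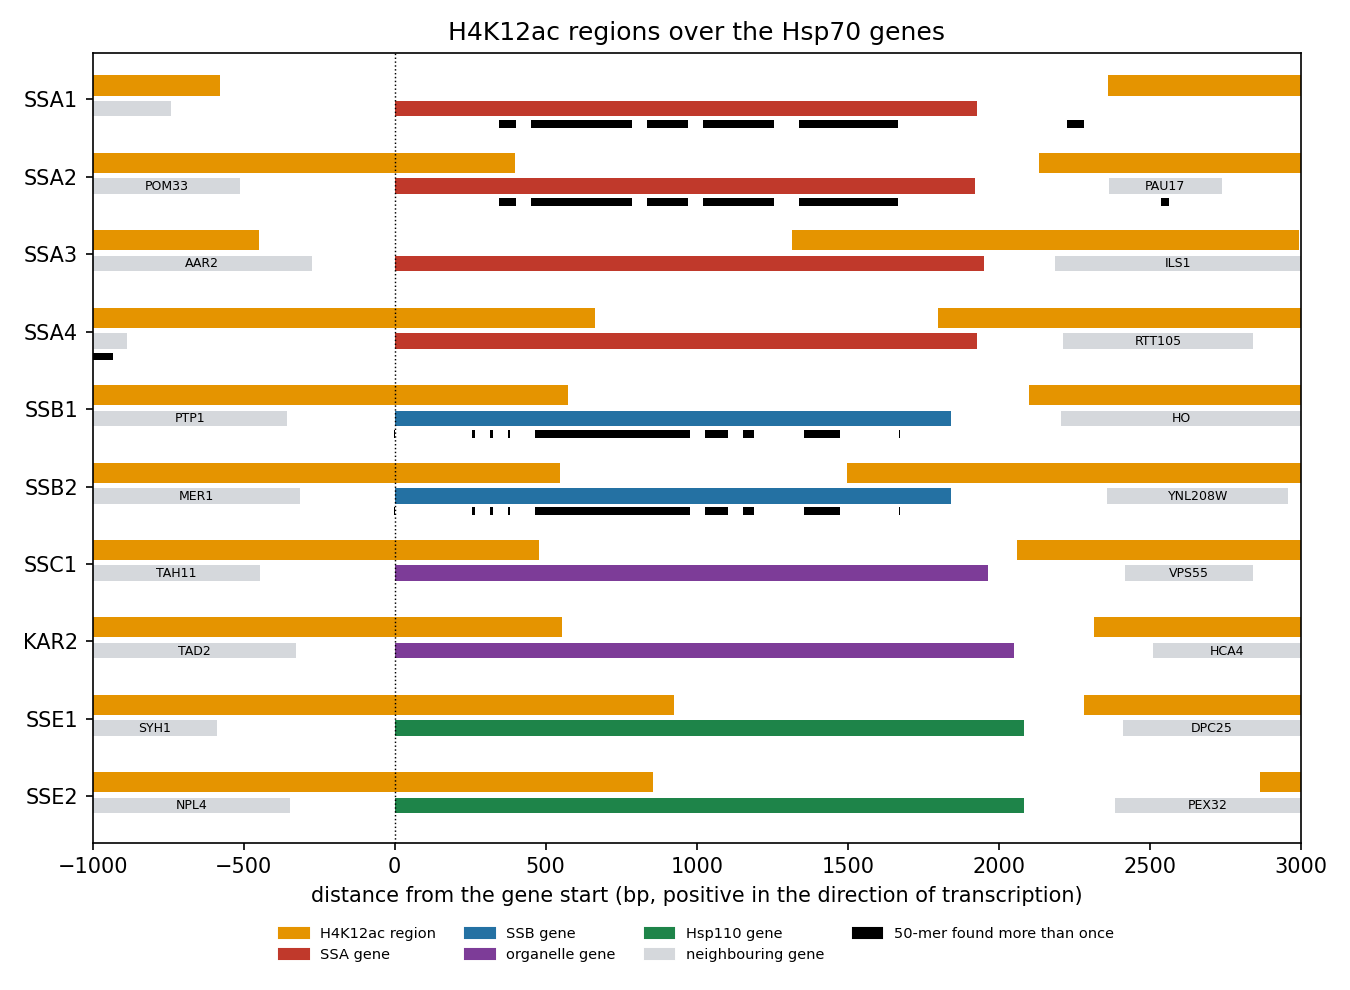
Map of the 10 genes aligned at the gene start (x axis, distance in bp, positive in the direction of transcription). Orange bars are H4K12ac regions, coloured bars the members by group, grey bars neighbouring genes, and black bars the starts of 50-base words that occur more than 1 time in the genome; the regions over 8 starts end 396 to 925 bp into the gene, while SSA1 and SSA3 have none over the start.

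SSA1 (YAL005C, chrI:139503-141431, minus strand, 1929 bp) codes for a cytosolic Hsp70 that folds new and damaged proteins. It was the member with no acetylated region at all, with 0 bp of its promoter and 0 bp of its coding sequence covered. The nearest region (chrI:142010-144809, 2800 bp) began 579 bp upstream of the start. It lay on the far side of a divergent promoter and held the start of EFB1, the gene of translation elongation factor 1 beta, which lies 743 bp from that of SSA1, and the start of VPS8, which acts in vacuolar sorting. SSA1 thus stood in a gap of 2941 bp that ran past both of its ends. Such a gap is not rare, as 78.7% of the 1954 gaps between regions were shorter and 416 were as long or longer. Of the 606 genes whose start lay in no region, 244 (40.3%) were nearer to one than SSA1, and their median distance was 803.5 bp.

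SSA2 (YLL024C, chrXII:95566-97485, minus strand, 1920 bp) codes for the near copy of Ssa1 that is abundant in growing cells, and it differed from SSA1 in having its start and whole promoter covered. Its region (chrXII:97089-101721, 4633 bp) also held the starts of POM33, HIF1 and SPA2. It reached 4236 bp upstream of the start and stopped 396 bp after it. That was the shortest reach into a gene among the 8 members, with 397 bp (20.7%) of SSA2 covered, or 41.6% of its bases with a unique 50-base word. Only 6 of the 233 genes of the same length with such an edge had a shorter one.

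SSA3 (YBL075C, chrII:84499-86448, minus strand, 1950 bp) is a heat-induced SSA gene, almost silent in unstressed cells. Its start lay 450 bp from the nearest region (chrII:86898-88496, 1599 bp), which covered 51 bp (10.2%) at the far end of its promoter. That region held the start of AAR2, a splicing factor gene whose coding sequence ends 273 bp before SSA3 and which is named here after its values were seen. SSA3 differed from SSA1 at its other end, where a region of 1678 bp (chrII:83454-85131) covered the last 633 bp (32.5%) of the gene. The gap between these regions was 1766 bp long, with 54.9% of all gaps shorter, and 198 of the 606 genes with an uncovered start (32.7%) were nearer to a region.

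SSA4 (YER103W, chrV:364589-366517, plus strand, 1929 bp) is also a heat-induced SSA gene, and its start and whole promoter were covered in a list that includes the unstressed libraries. The region (chrV:360846-365250, 4405 bp) held the starts of AST2 and RPS8B, a ribosomal protein gene, and ended 661 bp into SSA4. A region of 1486 bp (chrV:366389-367874) took in the last 129 bp, so that 791 bp (41.0%) were covered and the gap of 1138 bp lay wholly inside the gene. Since the list is pooled, it does not tell whether the promoter of SSA4 was marked at 30 °C, at 39 °C or at both.

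SSB1 (YDL229W, chrIV:44065-45906, plus strand) and SSB2 (YNL209W, chrXIV:252059-253900, plus strand), each 1842 bp long, code for the Hsp70 that meets nascent chains at the ribosome, and they are expressed with the ribosomal protein genes. Both starts and both promoters were wholly covered, and the regions ended at nearly the same place, 574 bp into SSB1 and 546 bp into SSB2. Both edges lie in a run, from 465 to 978 bp, of 50-base words that occur more than 1 time in the genome. The part of this run in the likeness of the edges was not tested. The region of SSB1 (chrIV:41309-44639, 3331 bp) also held the starts of BRE4 and PTP1, and that of SSB2 (chrXIV:249480-252605, 3126 bp) those of MRX7 and MER1. The copies differed at the other end. SSB1 had no further region inside the gene and 575 bp (31.2%) covered, whereas a second region (chrXIV:253555-256452) took in the last 346 bp of SSB2 and raised its cover to 893 bp (48.5%), the highest of the 10.

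SSC1 (YJR045C, chrX:519638-521602, minus strand, 1965 bp) codes for the mitochondrial Hsp70 that pulls proteins through the inner membrane, and KAR2 (YJL034W, chrX:381327-383375, plus strand, 2049 bp) for the BiP of the endoplasmic reticulum. Both lie on chromosome X beside a divergent gene, and both were at the end of a long region. That of SSC1 (chrX:521126-530808, 9683 bp) held 7 gene starts, its own and those of TAH11, ANB1, CYC1, UTR1, ISY1 and OSM1, and reached 9206 bp upstream. That of KAR2 (chrX:373251-381881, 8631 bp) held 6, its own and those of TAD2, SNX4, IRC18, LOH1 and NUP192, and reached 8076 bp upstream. Downstream of the start they ended within the range of the other members, with edges at 476 bp in SSC1 and 554 bp in KAR2. The covered parts came to 477 bp (24.3%) and 555 bp (27.1%).

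SSE1 (YPL106C, chrXVI:350194-352275, minus strand) and SSE2 (YBR169C, chrII:573915-575996, minus strand), each 2082 bp long, code for the Hsp110 proteins, distant Hsp70 relatives that exchange the nucleotide of Ssa and Ssb. SSE1 had the only region with no other gene start (chrXVI:351350-353569, 2220 bp), whereas that of SSE2 (chrII:575143-579335, 4193 bp) held NPL4 and SEC66. They had the longest reach into the gene, 925 bp in SSE1 and 853 bp in SSE2, with 926 bp (44.5%) and 854 bp (41.0%) covered.

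Ordered by the distance from start to downstream edge, the genes ran SSA2 (396 bp), SSC1 (476 bp), SSB2 (546 bp), KAR2 (554 bp), SSB1 (574 bp), SSA4 (661 bp), SSE2 (853 bp) and SSE1 (925 bp). The neighbours SSB2, KAR2 and SSB1 lay closer together than the length of a read (50 bp), and no error can be given for an edge of a merged list. Among the 233 genes of the same length whose region ends inside them the median was 835 bp (quartiles 687 and 958 bp). The 6 members of the SSA, SSB and organelle groups with a covered start lay below the lower quartile, and the Hsp110 genes lay between the quartiles. In these terms 6, 9, 19, 23, 27 and 45 of the 233 had a shorter distance than SSA2, SSC1, SSB2, KAR2, SSB1 and SSA4, and 126 and 156 had a shorter one than SSE2 and SSE1. The 233 include the members themselves. The edges of SSA2, SSB1 and SSB2, 3 of the 8, fell where 50-base words begin that occur more than 1 time in the genome, and those of the other 5 did not. The part of these repeats in the position of the edges was not tested.

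**Figure D2:**
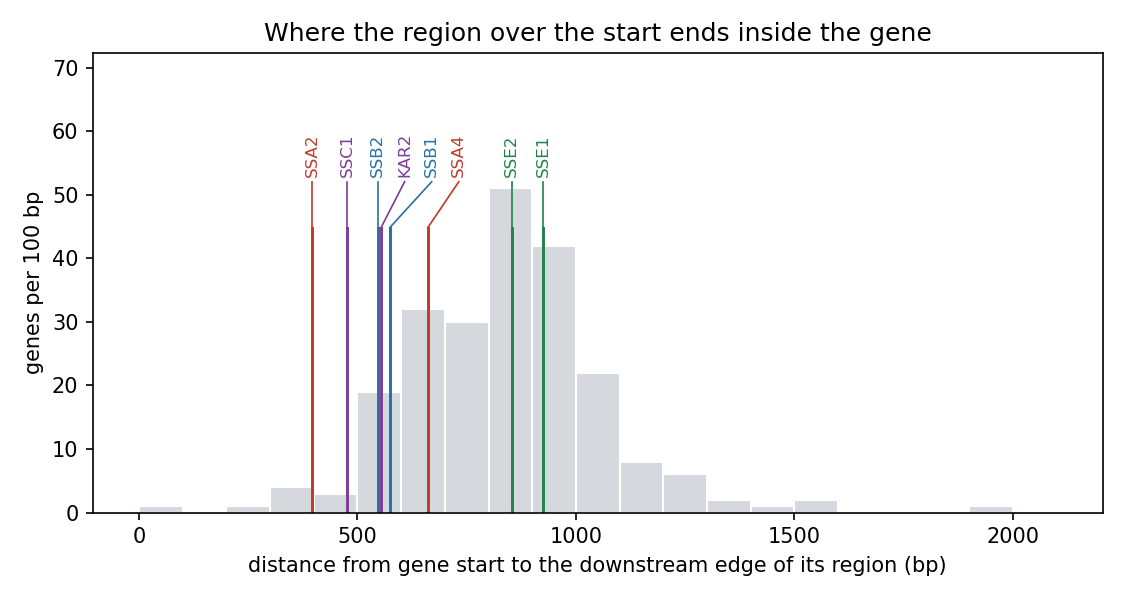
Distance in bp from the gene start to the downstream edge of the region over it (x axis) for genes of 1842 to 2082 bp whose region ends inside the gene. Grey bars give the number of genes per 100 bp without the members, and coloured lines are the 8 members. SSA2, SSC1, SSB2, KAR2, SSB1 and SSA4 lie from 396 to 661 bp, and SSE2 and SSE1 at 853 and 925 bp. The lower quartile of all 233 such genes, members included, was 687 bp. The edges of SSA2, SSB1 and SSB2 fall in repeated sequence.

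Read along the gene, the members left the regions over a short stretch. At 300 bp after the start 8 of 10 were covered, beside 89.8% of all genes and 91.6% of the genes of the same length. At 500 bp 6 were covered (88.8 and 89.6%), at 600 bp 3 (85.6 and 83.2%), and at 900 bp 1, SSE1 (66.0 and 50.3%). From 930 to 1310 bp after the start no member was covered, in any of the 39 steps of 10 bp. Of the genes of the same length 29.2 to 46.8% were covered there, and of all genes 53.3 to 64.0%. The stretch was marked off by the cover of the members themselves. In SSA1 and SSA2 (to 970 and at 1021 to 1255 bp) and in SSB1 and SSB2 (to 978, at 1029 to 1101 and at 1152 to 1188 bp) it holds 50-base words that occur more than 1 time in the genome. The part of these words in the uncovered stretch was not tested. From 440 to 10 bp before the start 8 of 10 members were covered, beside 83.0 to 89.9% of all genes and 86.1 to 92.5% of those of the same length. At 600 bp before the start 10 of 10 were covered, beside 81.9 and 84.7%. Downstream of the coding sequence, at 2500 bp, 9 of 10 were covered, beside 59.5% of all genes and 69.6% of genes of the same length. SSE2 was the exception.

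**Figure D3:**
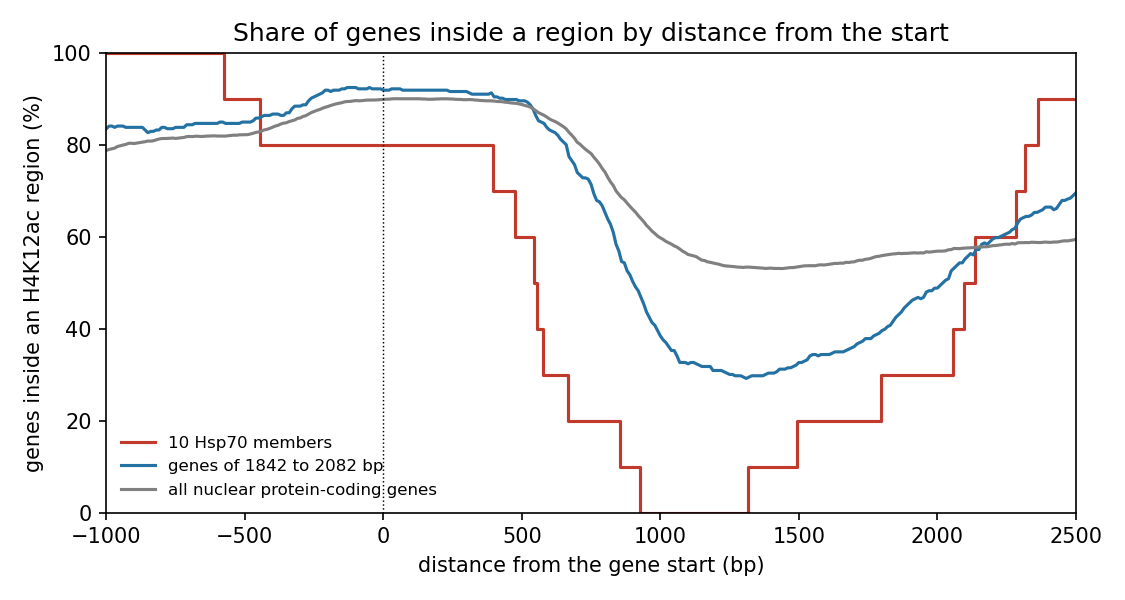
Share of genes inside an H4K12ac region (y axis, %) by distance from the gene start in bp (x axis), for the 10 members (red), the genes of 1842 to 2082 bp (blue) and all nuclear protein-coding genes (grey). The red line falls from 80% at 300 bp to 0 from 930 to 1310 bp, where the blue line lies between 29.2 and 46.8%.

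Pairs of members were compared by the share of 351 steps, from 1000 bp before to 2500 bp after the start, at which both were covered or both were not. The likest pairs crossed the groups: SSB1 and SSC1 were in the same state at 96.0% of steps, SSA2 and SSC1 at 95.4%, and SSA2 and SSB1 at 93.7%. Gene copies were not the likest, with 91.7% for SSE1 and SSE2, 82.1% for SSB1 and SSB2, 65.8% for SSA1 and SSA2, and 54.7% for the heat-induced SSA3 and SSA4. SSA3 and SSE2 were the least alike, at 29.1%. These shares describe 1 list, and steps of the same region are not independent. The share for pairs of genes outside the family is not given here, so these values have no background. Of the genes outside the family, ARO9 (96.6%), HLR1 (95.4%) and YJR149W (94.9%) were the likest to SSA3. For SSA1 the third place was tied, with 5 genes at or above it.

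Because some members are near copies of each other, the placing of reads bears on the uncovered parts. The first 90 bases of the coding sequence show how near, for SSA1 (chrI:141342-141431, minus strand) and SSA2 (chrXII:97396-97485, minus), which differed at 8 bases, and for SSB1 (chrIV:44065-44154, plus) and SSB2 (chrXIV:252059-252148, plus), which differed at 3. Capitals mark the bases that differ within each pair.
SSA1: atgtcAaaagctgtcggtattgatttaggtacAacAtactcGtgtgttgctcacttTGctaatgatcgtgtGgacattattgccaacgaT
SSA2: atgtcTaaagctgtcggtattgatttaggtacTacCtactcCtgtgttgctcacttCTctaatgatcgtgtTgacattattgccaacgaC
SSB1: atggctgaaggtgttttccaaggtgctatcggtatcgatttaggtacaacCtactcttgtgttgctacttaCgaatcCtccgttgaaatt
SSB2: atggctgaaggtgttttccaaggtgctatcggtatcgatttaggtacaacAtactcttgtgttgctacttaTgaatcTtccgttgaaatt

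The proteins were 97.7% identical between SSA1 and SSA2 and 99.3% between SSB1 and SSB2, but 87.7% between SSA3 and SSA4 and 75.6% between SSE1 and SSE2. Reads were 50 bp long, and 1088 of the 50-base words starting in SSA1 (56.4%), the same number in SSA2 (56.7%) and 776 each in SSB1 and SSB2 (42.1%) occurred more than 1 time in the genome. The other 6 members had none, as did 91.6% of all genes. How reads with several equal matches were treated is not given in the sources used here, and their part in the uncovered stretches of SSA1, SSA2, SSB1 and SSB2 was not tested. In SSA2 repeated words began at 12.8% of the covered bases and 68.1% of the uncovered ones, in SSB1 at 24.0 and 50.4%, and in SSB2 at 13.0 and 69.5%.

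SSA3, SSA4, SSC1, KAR2, SSE1 and SSE2 each had 1138 to 1494 bp outside regions, in which no word was repeated. In SSA1 the first repeated word was placed 346 bp after the start, by its base of lowest chromosome coordinate. In this minus-strand gene the word reaches from there towards the start. None lay in the promoter, so the uncovered start of this gene and its promoter were unique. No repeated word began at 841 bases of its coding sequence, though some of these lie inside a repeated word that begins nearby. Counted over unique bases alone, the cover of SSA2 was 41.6%, that of SSB1 41.0% and that of SSB2 72.9%, and the median of the 10 members rose from 31.8 to 41.0%.

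**Figure D4:**
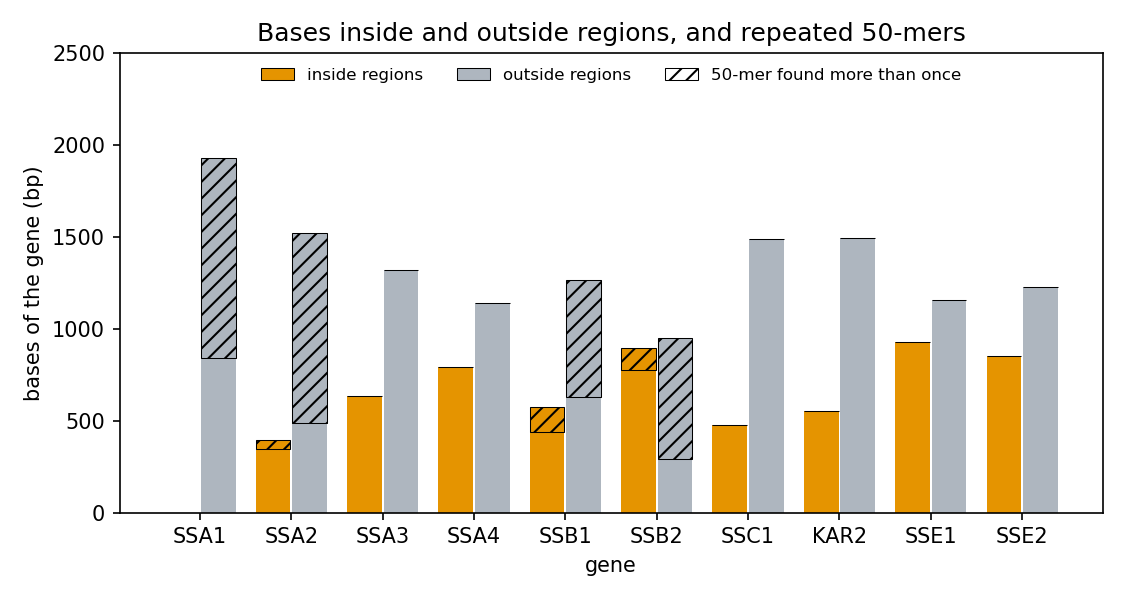
Bases of each gene (y axis, bp) inside (orange) and outside (grey) H4K12ac regions, with hatching for bases at which a 50-base word found more than 1 time in the genome begins. Repeated words occur in SSA1, SSA2, SSB1 and SSB2, and the other 6 genes have 1138 to 1494 bp outside regions with none.

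Heat-shock elements of at least 3 units, the binding motif of Hsf1, were found, on either strand, in the 500 bp upstream of 4 members, among them SSA1, SSA2 and KAR2, beside 89 of 6000 promoters of that length (1.48%). SSA1 had 2, of 4 units at 365 to 346 bp and of 3 units at 262 to 248 bp before the start, and both lay outside every region. The elements of SSA2 (234 to 220 bp) and KAR2 (206 to 187 bp, 4 units) lay inside one. The motif thus occurred inside a region at SSA2 and outside one at its near copy SSA1. Several members are known targets of Hsf1, so the motif itself is no finding of these data. With 2 units allowed, 7 members and 35.2% of promoters had a match, those without being SSA3, SSB1 and SSC1. Only exact units that follow each other without a gap were counted. Elements with a gap or a changed base would be missed, so a gene without a match may still hold one.

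The stress response element AGGGG, the site of Msn2 and Msn4, occurred in the promoters of 4 members and in 34.1% of all promoters. SSA4 had 3 and SSA1 had 2, whereas SSC1 and SSE2 had 1 each. TATAAA, in SSB1 and KAR2 partly overlapping its own complement, was found upstream of 8 members, SSA1 not among them, and in 60.5% of all promoters. Every one of these matches lay in a region except those of SSA1 and the single TATAAA of SSA3, 93 to 88 bp before its start. A match is a run of letters and was not measured as a bound site.

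The genes grouped here as partners were covered at the start without exception, in 29 of 29 genes, beside 89.9% of all genes. They comprised 4 further Hsp70 genes, which belong to the family itself, 21 genes of J-domain proteins and 4 of nucleotide exchange factors. Here 20 of 29 genes (69.0%) were wholly covered, beside 3303 of all 6002 genes and 0 of the 10 members. Another 4 were covered over less than 50%, beside 29.3% of all genes and the 10 members. Of these members SSB2 passes 50% over bases with a unique 50-base word. Most of these partner genes are shorter than the members, which was not corrected for. Among the further Hsp70 genes, SSZ1, whose product sits at the ribosome with the J-domain protein Zuo1, and ECM10, a mitochondrial paralogue of SSC1, were wholly covered. LHS1, of the endoplasmic reticulum, had 35.7% covered and SSQ1, of mitochondrial iron-sulfur cluster assembly, 55.3%. Among the J-domain genes, ZUO1 was wholly covered, and the chief cytosolic partners of Ssa, YDJ1 and SIS1, had 46.1 and 49.1% covered. SEC63, which works with Kar2 in translocation, had 38.1%. LHS1, SSQ1, ZUO1, YDJ1, SIS1 and SEC63 are named after their values were seen.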

How the data were processed

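Yeast H4K12ac ChIP-seq libraries were made by the authors from WT and mip6Δ cells. Adapters were trimmed with Cutadapt, 50 bp reads were mapped to saccer3 with Bowtie2, Macs2 called peaks using H4K12ac samples without H4, and the peaks of all samples were merged with bedtools merge and default parameters. The peak threshold and the treatment of reads with several matches are not given in the sources used here. The deposited file holds the start and end of each merged region, and no other values, counts or scores. Starts were counted from 0 in the file and are given from 1 here.

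Regions were intersected with the 6002 nuclear protein-coding genes of the R64 RefSeq annotation, the same assembly as sacCer3. Chromosome names matched, and no region passed the end of its chromosome. Genes begin at their first coding base here, and transcription begins further upstream. Repeated sequence was counted as exact 50-mers on both strands. A word is said to begin at its base of lowest chromosome coordinate. In minus-strand genes this is its last base in the direction of the gene. Motifs were searched on both strands of the 500 bp upstream. Identity was taken from global alignments. All sequences are from RefSeq, and upstream sequences of 4 members are not reported here. Python 3.11.15, NumPy 2.4.6, SciPy 1.17.1, Biopython 1.88 and Matplotlib 3.10.9 were used, and the interval code was tested on simulated data against a base-by-base count.

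The members, gene lists and comparisons were chosen with earlier results of these data known. All members were named, with neighbours whose start lies within 1000 bp or in the same region, up to 2 partner genes per list with the highest cover (many tied, and those given were picked after their values were seen), and the 3 genes most like SSA1 and SSA3, or only their number where more tied. No test was made, because the list is pooled over libraries and has no replicate, level or score. Alternatives were the window or position taken as the start, the length of the promoter, the regions kept, joined or shortened, and bases with a unique 50-mer only. RNA-seq and total H4 samples were not analysed here.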

Additional observations from a re-analysis of the deposited data

How the results depend on the processing

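The count of members with a covered start stayed at 8 of 10, that of SSA members at 2 of 4, and the median promoter cover of the members at 100%, under every alternative tried, and no member changed sides. The window or position taken as the start, dropping regions under 1000 bp, joining those within 500 bp, shortening each by 200 bp per edge and removing the longest 5% were tried for the counts. None of these could move a member. Covered starts lay at least 396 bp from an edge, and those of SSA3 and SSA1 450 and 579 bp from a region. Regions over starts were 2220 to 9683 bp long, and the longest 5% began at 9736 bp. The gaps at SSA3 and SSA1 were 1766 and 2941 bp. The unchanged counts are thus no sign of robustness. The share of all genes with a covered start, 89.9%, moved to 91.7% with a window of 250 bp on each side, 88.6% without regions under 1000 bp, 87.1% with shortened regions and 75.6% without the longest 5%. The median gene cover of the members, 31.8%, ranged from 21.3% with shortened regions to 41.0% over unique 50-mers only. Shortening lowered the cover of the 9 genes with any, to between 10.3% (SSA2) and 34.9% (SSE1). Promoter cover was 42.2% for SSA1 and 55.1% for SSA3 with 1000 bp upstream, and 0 for SSA3 with 250 bp or with shortened regions. No paired analysis was possible because positions are pooled over libraries. Leaving out a library could not be done either, and without scores no stricter peak threshold could be set. Whether a region came from 1 library or many, and from which strain or time, cannot be told from positions.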
